A study of Homo sapiens with 6 samples.

Results

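The genes described here form a stress response module of 50 genes. It holds the sensors and targets of the unfolded protein response and of the amino acid response. The genes are a list of names, drawn up with earlier results of these data known, and no threshold on a measured value enters the rule. A row of the deposited tables counted for a module gene where the gene was among the names in that row. The library tables name 56584 gene symbols in all. By role, 4 module genes are stress sensors, 26 work in folding, degradation, translocation or export at the endoplasmic reticulum (ER), and 20 belong to the ATF4 arm, that is ATF4 itself with related transcription factors, effectors and aminoacyl-tRNA synthetases.

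When proteins misfold in the ER, the membrane proteins encoded by ERN1 (IRE1), ATF6 and EIF2AK3 (PERK) signal to the nucleus. IRE1 splices the XBP1 messenger RNA and ATF6 is cut to release a transcription factor, and both pathways raise chaperones, disulfide enzymes and degradation factors. PERK, and GCN2 (EIF2AK4) when amino acids run short, phosphorylate the initiation factor eIF2, which lowers general translation while translation of ATF4 rises. ATF4 then activates genes of amino acid supply, tRNA charging and feedback control. B cells that secrete antibody are known for a large ER and strong use of the IRE1 and XBP1 branch.

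RNA was measured by sequencing of polyadenylated RNA in 6 libraries from human B cell lymphoma lines, 3 of LY19Y646F and 3 of LY19WT. LY19Y646F is labelled as expressing EZH2-Y646F, a mutant of the histone methyltransferase EZH2 found in germinal centre lymphomas, constitutively under a CMV promoter, and LY19WT as carrying wild-type EZH2. Both lines were untreated, were grown in RPMI with fetal bovine serum and were at passages 10 to 15. The libraries are described as biological replicates, but nothing says that they came from separate cultures, so every p-value reflects library-to-library spread, which may be technical. Each condition is 1 line, and an effect of the EZH2 allele cannot be told apart from any other difference between the lines.

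Levels are FPKM, mapped fragments scaled by transcript length and by library size, as the authors computed them for each library. The read depth behind each value is not given in the sources used here. EZH2 measured 70.2, 80.4 and 93.5 FPKM in LY19Y646F, against 60.6, 76.5 and 74.7 FPKM in LY19WT, so the lines overlapped (exact two-sided permutation p = 0.40). The lines differed in B cell markers. A list of 7 mature B cell markers summed to 681 to 1065 FPKM in LY19Y646F and 358 to 550.3 FPKM in LY19WT. A list of 7 precursor B cell markers summed to 10.3 to 36.6 FPKM in LY19Y646F and 796 to 2394 FPKM in LY19WT. Rows naming the kappa constant gene IGKC held 4283 to 4908 FPKM in LY19Y646F and 39.4 to 54.3 FPKM in LY19WT, and those naming the heavy chain segment IGHV3-23 held 4523 to 6529 FPKM in LY19Y646F and 0.381 to 1.70 FPKM in LY19WT. The lambda segment IGLV1-40 went the other way, with at most 0.0803 FPKM in LY19Y646F and 298 to 428 FPKM in LY19WT. A list of 6 plasma cell markers summed to 29.3 to 97.8 FPKM in LY19Y646F and 39.6 to 193 FPKM in LY19WT. Of the T cell, myeloid, erythroid, fibroblast and epithelial lists, only the myeloid one passed 2 FPKM, at 0.392 to 0.723 FPKM in LY19Y646F and 11.4 to 13.9 FPKM in LY19WT. Of that LY19WT sum LYZ alone held 10.1 to 13.4 FPKM, and the other 5 myeloid markers were under 1 FPKM in every library. The part of these differences in the results below was not tested, and in bulk RNA fewer cells of a type and less RNA per cell cannot be told apart. In LY19WT replicate 3 the 10 highest rows held 27.5% of the summed FPKM, against 5.71% to 9.38% in the other libraries.

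Of the 50 module genes, 34 could be tested as single genes, 9 of these were higher in LY19Y646F and 3 were lower. The higher genes were ERN1, the ER chaperone HSPA5, the disulfide isomerase PDIA6, the translocon subunit SSR3, and, in the ATF4 arm, ATF4, TRIB3, ASNS, VLDLR and WARS. The lower genes were the oxidase ERO1LB, the transcription factor ATF3 and the synthetase EPRS. The test was limma on log2(FPKM + 1) over all 10664 genes that passed a mean of 0.5 FPKM and shared no row with another coding gene, with a Benjamini-Hochberg adjusted p under 0.05. Differences are given on that log2 scale as LY19Y646F minus LY19WT, with the standard error, and they understate the change of low genes. Over all genes 33.2% passed, 16.7% higher and 16.5% lower, and among the tested module genes 35.3% passed. The share of the module that passed was thus near that of all genes. Of the 10664 genes, 7514 are protein-coding, so the share over all genes also covers non-coding ones. The median difference of the 34 genes was 0.20, against -0.03 over all genes tested. The 3 libraries of each line did not overlap for 20 of the 34 genes, 14 higher and 6 lower, and for 48.6% of all genes.

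The arms are given apart. In the ER arm 16 of 26 genes could be tested, 3 were higher and 1 was lower, with a median difference of 0.10. In the ATF4 arm 15 of 20 could be tested, 5 were higher and 2 were lower, with a median of 0.49. The share of tested genes that passed was 25.0% in the ER arm and 46.7% in the ATF4 arm, against 33.2% of all genes. The difference between the arms was not tested. With the replicate number as a block, 36.2% of all genes passed, and the module counts became 11 higher and 6 lower. Without replicate 1 of both lines, 5 ER arm genes were higher and 3 lower, and 8 ATF4 arm genes were higher and 3 lower. Calls over all 10664 genes also rose in that fit, from 3544 to 4564. The lower module calls in that fit include DNAJB9 and DDIT4. Both rest on zeros in libraries where another row overlaps the gene, for DNAJB9 only at its edge, as described below. The ER arm count of higher genes was 1 without LY19Y646F replicate 2 or 3 or without LY19WT replicate 2 or 3, and its count of lower genes was 2, DNAJB9 included, without LY19Y646F replicate 1. The ER arm median was 0.06 without LY19Y646F replicate 1 and 0.19 without LY19Y646F replicate 2. The ATF4 arm count of lower genes was 1 without replicate 2 of either line. Of the genes that could not be tested, 14 stood in rows that also name another coding gene in at least 1 library, and DDIT3 and NUPR1 were below the filter.

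**Figure D1:**
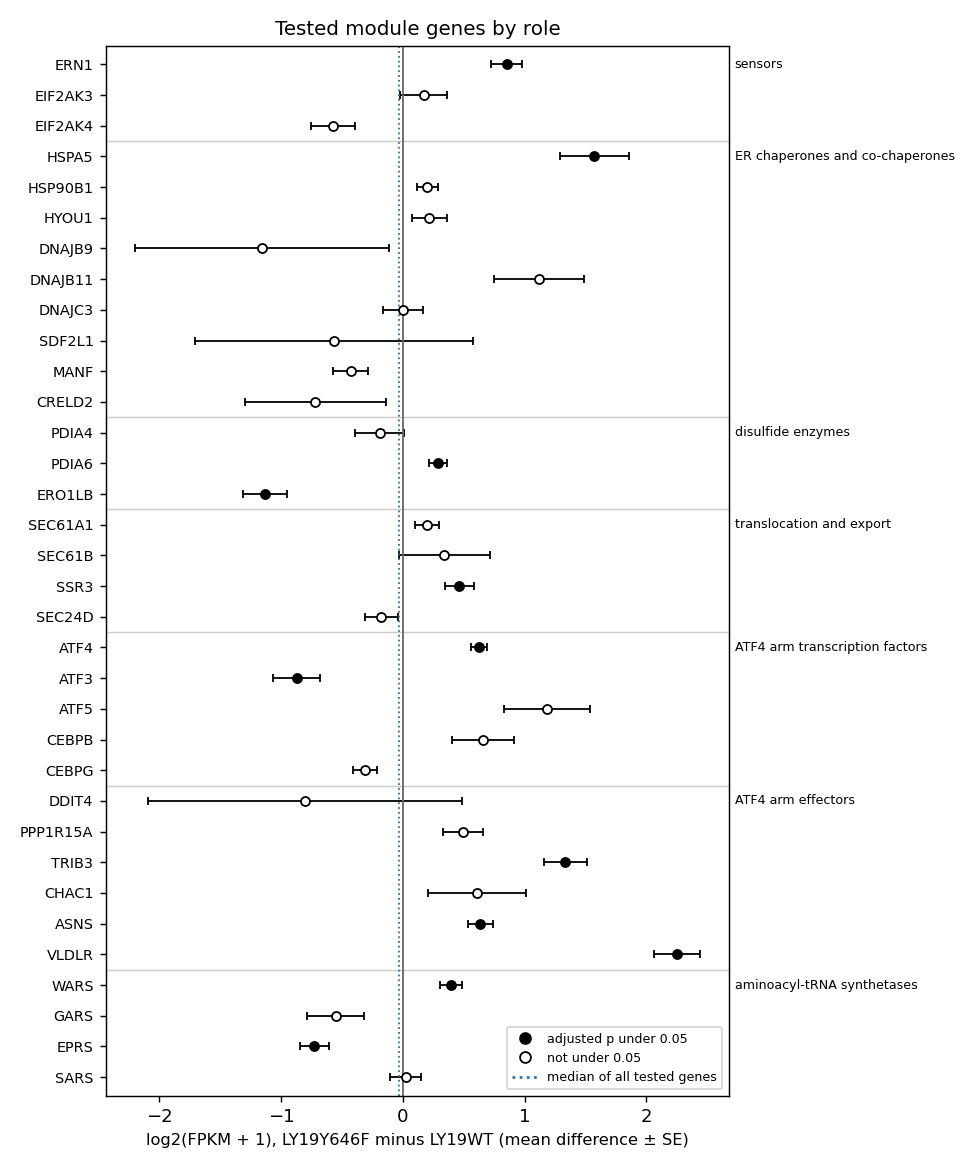
Difference between the lines for the 34 tested module genes, on the x axis as log2(FPKM + 1) in LY19Y646F minus LY19WT with bars of ± SE, grouped by role down the y axis. Filled points passed an adjusted p of 0.05 in limma: 9 lie right of 0 and 3 left of it.

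ERN1 (chr17:62116502-62208179, hg19), which encodes the sensor IRE1, was higher in LY19Y646F. It measured 1.62, 1.65 and 1.39 FPKM in LY19Y646F replicates 1, 2 and 3, against 0.374, 0.501 and 0.368 FPKM in LY19WT. All LY19Y646F libraries were above all LY19WT libraries, and the ratio of the means was 3.75. The log2 difference was 0.85 ± 0.13 (SE, n = 3 each; limma adjusted p = 0.0051). The level was low in both lines.

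The other sensors did not pass. EIF2AK3, which encodes PERK, measured 31.6, 30.5 and 45.9 FPKM in LY19Y646F and 27.6, 34.5 and 32.3 FPKM in LY19WT, and the lines overlapped (log2 difference 0.17 ± 0.19, limma adjusted p = 0.54). EIF2AK4, which encodes the amino acid sensor GCN2, measured 7.13, 10.1 and 7.07 FPKM in LY19Y646F, against 10.97, 13.8 and 12.6 FPKM in LY19WT. Every LY19Y646F library was below every LY19WT library. The difference was -0.57 ± 0.18, with a limma adjusted p of 0.061, of 0.036 with the replicate block and of 0.034 without LY19Y646F replicate 2. With any other library left out EIF2AK4 did not pass, at an adjusted p of up to 0.18. ATF6 measured 7.52, 23.7 and 24.8 FPKM in LY19Y646F and 23.0 and 27.1 FPKM in LY19WT replicates 1 and 3. Its row in LY19WT replicate 2 also names DUSP12 and held 57.0 FPKM.

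Among the ER chaperones and their partners, HSPA5 was higher in LY19Y646F and the other 8 tested genes did not pass. HSPA5 encodes BiP, the HSP70 chaperone of the ER that also restrains the sensors. It measured 209, 252 and 431 FPKM in LY19Y646F, against 90.0, 92.5 and 102 FPKM in LY19WT. Every LY19Y646F library was over the highest LY19WT library, and the means stood 3.14 to 1. The log2 difference was 1.57 ± 0.28 (SE, n = 3 each; limma adjusted p = 0.0098). The HSPA5 row spans chr9:127997132-128003609 (hg19) in 5 libraries. In LY19Y646F replicate 3 it runs to chr9:128143455, 139846 bases further. With that row set to missing the difference was 1.27 (limma adjusted p = 0.0029).

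The promoter of HSPA5 carries an ER stress response element (ERSE), the letters CCAAT, any 9 bases and CCACG. This sequence is known to bind NF-Y and ATF6. In the 250 bases upstream of the start, on either strand, the element was found in 7 of 46 module genes with a RefSeq promoter, all of them among the 23 of the ER arm, and in 0.0916% of all 27305 promoters. Of the 5 tested genes that hold it, 4 are shown because their outcomes differ, with the element in capitals, 5′ to 3′ on the gene's strand (RefSeq, GRCh38.p14); HSPA5 and PDIA6 were higher, ERO1LB was lower and HSP90B1, which has a second match, did not pass.
HSPA5, chr9:125241371-125241429, minus strand: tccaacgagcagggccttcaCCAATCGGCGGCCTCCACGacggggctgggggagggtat
PDIA6, chr2:10812833-10812891, minus strand: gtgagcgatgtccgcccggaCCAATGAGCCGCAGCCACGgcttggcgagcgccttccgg
ERO1LB, chr1:236282163-236282208, minus strand: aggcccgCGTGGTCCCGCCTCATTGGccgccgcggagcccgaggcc
HSP90B1, chr12:103930196-103930254, plus strand: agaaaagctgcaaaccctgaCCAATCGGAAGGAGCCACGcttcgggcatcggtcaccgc
In ERO1LB the element lies on the opposite strand. CALR, CANX and CRELD2 hold the other matches. A match describes the letters of the window and is not evidence of binding.

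HSP90B1, the ER form of HSP90, measured 293, 296 and 303 FPKM in LY19Y646F, against 237, 265 and 275 FPKM in LY19WT. The lines did not overlap, but the difference of 0.20 ± 0.08 did not pass (limma adjusted p = 0.13). DNAJB11, an HSP40 partner of BiP, measured 66.1, 175 and 139 FPKM in LY19Y646F and 50.7, 52.9 and 57.1 FPKM in LY19WT, again with no overlap. LY19Y646F replicate 1 was close to LY19WT, and the difference of 1.12 ± 0.37 had a limma adjusted p of 0.074, or of 0.0024 without that library, where it was 1.53. With any other library left out the adjusted p was 0.16 to 0.20. The authors' deposited table of line means gives DNAJB11 as 128 FPKM in LY19Y646F and 122 FPKM in LY19WT. MANF, a secreted ER protein induced by ER stress, was below LY19WT in every LY19Y646F library, with 94.7, 117 and 126 FPKM against 136, 155 and 162 FPKM in LY19WT. Its difference of -0.43 ± 0.14 had a limma adjusted p of 0.070, of 0.022 with the replicate block and of 0.071 to 0.18 with 1 library left out.

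The remaining chaperone genes overlapped between the lines. HYOU1, a large HSP70 relative, measured 33.98 to 41.9 FPKM in LY19Y646F and 28.5 to 37.2 FPKM in LY19WT. DNAJC3, which encodes a co-chaperone of BiP, measured 12.5 to 16.6 FPKM in LY19Y646F and 12.9 to 16.9 FPKM in LY19WT, a difference of 0.00 ± 0.16. CRELD2, an ER stress-induced disulfide isomerase-like protein, measured 4.64 to 18.7 FPKM in LY19Y646F and 10.8 to 27.5 FPKM in LY19WT, and SDF2L1, part of a BiP complex, measured 1.02 to 31.0 FPKM in LY19Y646F and 6.002 to 27.8 FPKM in LY19WT. For both, replicate 1 was the highest library of its line. DNAJB9 (ERdj4) was listed at 11.1, 0 and 0 FPKM in LY19Y646F and at 4.51, 3.75 and 4.13 FPKM in LY19WT. The DNAJB9 row spans chr7:108210012-108215294 (hg19). In LY19Y646F replicates 2 and 3 a row naming PNPLA8 and THAP5, with 47.3 and 45.1 FPKM, ends at chr7:108210194. That row overlaps DNAJB9 only at its edge. Why DNAJB9 was listed at 0 there was not tested, and the zeros are not read as absence. The fitted difference of -1.16 (limma adjusted p = 0.44) became -2.36 (0.00063) without LY19Y646F replicate 1, while the authors' deposited table gives DNAJB9 as 7.55 FPKM in LY19Y646F and 3.93 FPKM in LY19WT.

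The lectin chaperones CALR and CANX, which bind glycoproteins, stood in merged rows. CALR shared its row in 5 of the 6 libraries, and those rows are not reported here. The authors' deposited table gives CALR as 927 FPKM in LY19Y646F and 444 FPKM in LY19WT. CANX measured 315, 365 and 385 FPKM in LY19Y646F and 239 and 220.3 FPKM in LY19WT replicates 1 and 2, while the LY19WT replicate 3 row, which also names LTC4S and MAML1, held 321 FPKM. With merged rows set to missing, a fit chosen after the values were seen in which 32.2% of all genes passed, CANX was higher in LY19Y646F by 0.62 ± 0.12 (limma adjusted p = 0.023, with 1 LY19WT library left out).

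**Figure D2:**
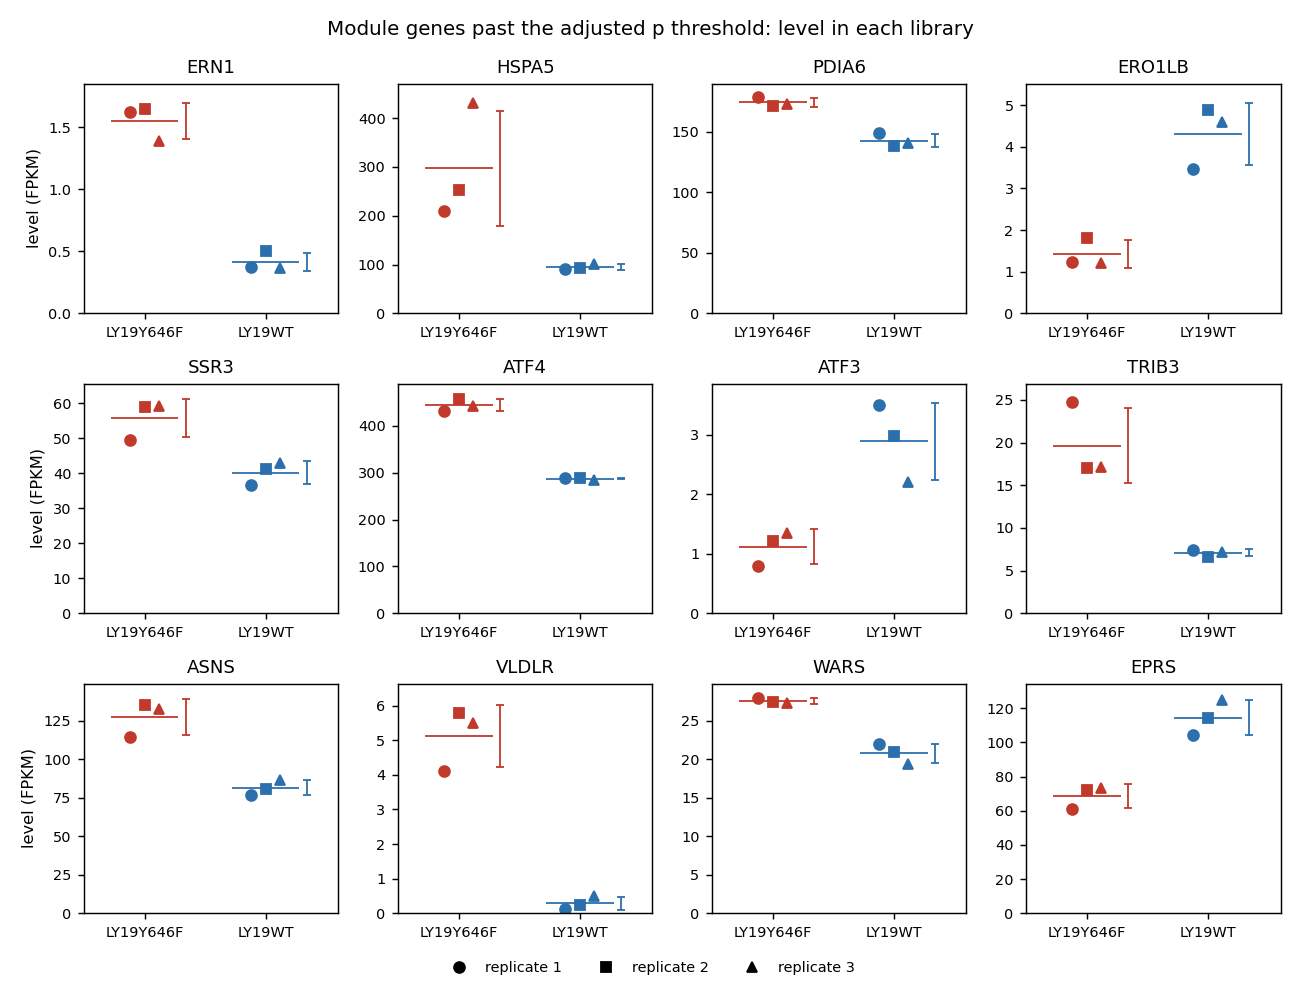
Level in FPKM (y axis, from 0) of the 12 module genes that passed, with LY19Y646F left and LY19WT right in each panel. Points are libraries, shaped by replicate number, horizontal lines are means and the bars beside them ± SD (n = 3 each). The lines overlap in none of the panels, and the 431 FPKM of HSPA5 in LY19Y646F replicate 3 stands above the other libraries.

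Of the disulfide enzymes, PDIA6 was higher in LY19Y646F and ERO1LB was lower. PDIA6, a protein disulfide isomerase, measured 179, 172 and 173 FPKM in LY19Y646F, against 149, 139 and 141 FPKM in LY19WT. The spread within each line was small, and the difference of 0.29 ± 0.07 passed (limma adjusted p = 0.031). It did not pass when either replicate 2 or 3 of either line was left out (adjusted p of 0.064 to 0.083) or with quantile scaling (0.20). ERO1LB, an oxidase that regenerates these isomerases, measured 1.24, 1.80 and 1.20 FPKM in LY19Y646F and 3.46, 4.88 and 4.58 FPKM in LY19WT, 0.329 of the LY19WT mean. The difference was -1.13 ± 0.18 (limma adjusted p = 0.0064). Its rows in LY19Y646F replicates 1 and 3 reach over 10 kb past the narrowest one, and with them set to missing it could not be tested. The LY19Y646F replicate 2 row also reaches 8508 bases past it, while the LY19WT rows reach at most 1071 bases, so the rows differ in extent between the lines.

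PDIA4, another isomerase, measured 27.9 to 41.5 FPKM in LY19Y646F and 33.5 to 44.8 FPKM in LY19WT and did not pass (limma adjusted p = 0.51). PDIA3, the partner of calnexin and calreticulin, measured 324 and 342 FPKM in LY19Y646F replicates 2 and 3, against 118, 121 and 143 FPKM in LY19WT. Its row in LY19Y646F replicate 1 also names SERF2 and HYPK and held 932 FPKM. With that library left out for this gene, the difference was 1.38 ± 0.12 (limma adjusted p = 0.0021). P4HB, the founding member of the family, overlapped, with 182, 433 and 518 FPKM in LY19Y646F and 404 and 349 FPKM in LY19WT replicates 2 and 3, beside 260 FPKM in the merged row of replicate 1.

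None of the 5 genes of ER-associated degradation, which takes misfolded proteins out of the ER to the proteasome, could be tested as a single gene in all libraries. HERPUD1, an organiser of that machinery, measured 192 and 229.5 FPKM in LY19Y646F replicates 2 and 3, against 58.2, 60.6 and 71.7 FPKM in LY19WT. In LY19Y646F replicate 1 its row also names CETP and held 77.2 FPKM, close to the highest LY19WT value. That row holds RNA of both genes, so the level of HERPUD1 itself in that library is not known. With that row set to missing the difference was 1.71 ± 0.15 (limma adjusted p = 0.0020), a fit that leaves out the LY19Y646F library nearest to LY19WT. The authors' deposited table gives HERPUD1 as 197 FPKM in LY19Y646F and 88.4 FPKM in LY19WT, a smaller log2 difference of 1.15. The HERPUD1 promoter is shown because it holds both ERSE-II, the letters ATTGG, any 1 base and CCACG, and the amino acid response core TGATGNAA, on the opposite strand.
HERPUD1 ERSE-II, chr16:56932005-56932055, plus strand: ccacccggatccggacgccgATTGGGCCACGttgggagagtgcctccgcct
HERPUD1 amino acid core, chr16:56931946-56931993, plus strand: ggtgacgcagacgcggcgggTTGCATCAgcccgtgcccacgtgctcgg
ERSE-II was found in 3 module genes, HERPUD1, HYOU1 and SDF2L1, and in 0.0659% of all promoters. The unfolded protein response element core TGACGTG was found in HYOU1, where it overlaps an ERSE-II match, and in SSR3, and in 2.05% of all promoters.

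EDEM1, a lectin-like factor that marks glycoproteins for disposal, measured 36.8, 45.6 and 44.3 FPKM in LY19Y646F, against 57.8 and 62.0 FPKM in LY19WT replicates 1 and 3. These LY19Y646F values were below both LY19WT values. With the row of LY19WT replicate 2 set to missing the difference was -0.50 ± 0.14 (limma adjusted p = 0.060). The EDEM1 rows of LY19Y646F replicate 2 and LY19WT replicate 3 reach 114989 and 88019 bases past the narrowest one, and that fit keeps them. SYVN1, the ubiquitin ligase HRD1, shared its row with the ribosomal gene FAU in all 6 libraries, and the rows held 389 to 1204 FPKM in LY19Y646F and 603 to 946 FPKM in LY19WT. DERL1, a channel component, measured 44.0, 152 and 111 FPKM in LY19Y646F and 75.2 and 51.5 FPKM in LY19WT replicates 1 and 3, overlapping, with 92.2 FPKM in a merged row of replicate 2. Its row in LY19Y646F replicate 1, the lowest value, reaches 36138 bases past the narrowest one. DERL2 was listed at 35.8, 35.4 and 0 FPKM in LY19Y646F and at 30.2 and 0 FPKM in LY19WT replicates 1 and 2, with 838 FPKM in a row of LY19WT replicate 3 that also names C1QBP and DHX33. In LY19Y646F replicate 3 a row naming MIS12 and RABEP1, with 61.0 FPKM, spans its position. Rows without a gene name overlap it in each library where it is listed at 0. The authors' deposited table gives DERL2 as 58.3 FPKM in LY19Y646F and 43.9 FPKM in LY19WT. These zeros are not read as absence.

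**Figure D3:**
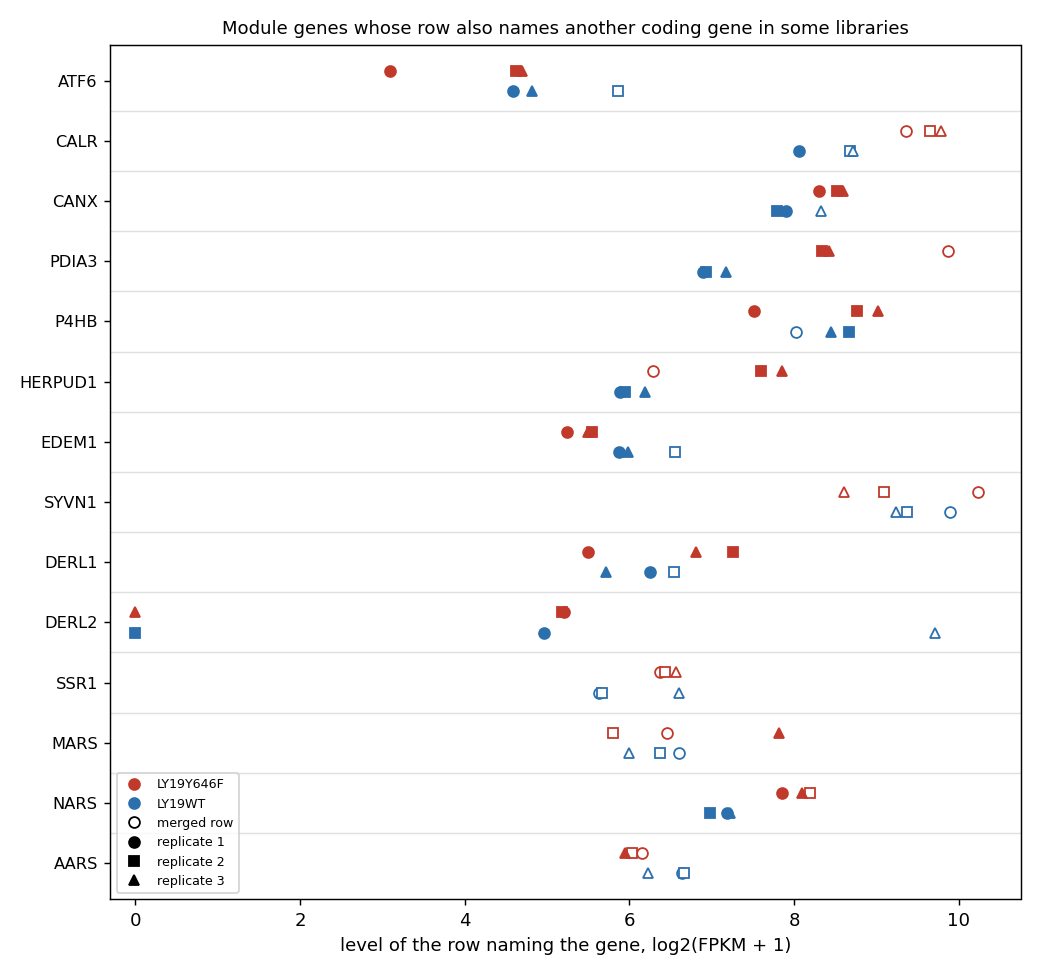
Level on the x axis as log2(FPKM + 1) of the row naming each of the 14 module genes that share a row with another coding gene in some library, with LY19Y646F above LY19WT for each gene. Open symbols are merged rows and filled ones name no other coding gene. For PDIA3, HERPUD1 and NARS the filled LY19Y646F symbols lie right of all LY19WT symbols.

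In translocation into the ER and export from it, SSR3 passed. SSR3, a subunit of the translocon-associated complex, measured 49.6, 58.9 and 59.1 FPKM in LY19Y646F, against 36.5, 41.3 and 42.9 FPKM in LY19WT. The lines did not overlap, and the difference was 0.46 ± 0.12 (limma adjusted p = 0.034). It did not pass when any 1 library other than LY19Y646F replicate 1 was left out (adjusted p of 0.058 to 0.10), with quantile scaling (0.093) or with no filter on low genes (0.097). SEC61A1, the channel itself, measured 69.5 to 74.4 FPKM in LY19Y646F and 59.5 to 69.9 FPKM in LY19WT (limma adjusted p = 0.20). SEC61B, its small subunit, measured 199.9, 102 and 89.4 FPKM in LY19Y646F and 133, 81.2 and 82.7 FPKM in LY19WT, with replicate 1 highest in both lines, and SEC24D, a coat protein of export vesicles, measured 9.11 to 11.6 FPKM in LY19Y646F and 10.9 to 13.0 FPKM in LY19WT. SSR1, another subunit of that complex, shared its row with CAGE1 in all 6 libraries, and the rows held 82.1 to 93.4 FPKM in LY19Y646F and 48.7 to 95.8 FPKM in LY19WT.

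In the ATF4 arm, ATF4 was higher in LY19Y646F and ATF3 was lower. ATF4 (chr22:39915700-39918691, hg19), the transcription factor at the centre of the amino acid response, measured 432, 458 and 441 FPKM in LY19Y646F, against 289, 288 and 285 FPKM in LY19WT. The spread within each line was far below the gap between them, and the mean was 1.54 times that of LY19WT. The difference was 0.63 ± 0.06 (limma adjusted p = 0.0013). ATF4 is regulated largely at translation, which these RNA values do not measure. ATF3, a stress-induced factor downstream of ATF4, measured 0.790, 1.22 and 1.35 FPKM in LY19Y646F and 3.49, 2.97 and 2.199 FPKM in LY19WT. Its difference of -0.87 ± 0.19 passed (limma adjusted p = 0.021), but not with the replicate block (0.067), without replicate 1 of both lines (0.057), or without LY19Y646F replicate 2 (0.061), LY19WT replicate 1 (0.053) or LY19WT replicate 2 (0.071).

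ATF5, CEBPB and CEBPG showed no overlap between the lines and did not pass. ATF5, a factor translated like ATF4, measured 184, 97.0 and 78.2 FPKM in LY19Y646F, against 58.5, 40.8 and 48.4 FPKM in LY19WT. Its difference was 1.18 ± 0.35 with a limma adjusted p of 0.053, and of 0.036 with the replicate block, 0.038 without LY19Y646F replicate 1 and 0.046 without LY19Y646F replicate 3. Leaving out any other library gave no pass, with an adjusted p of up to 0.16. CEBPB, a partner of ATF4, measured 7.59, 4.73 and 4.12 FPKM in LY19Y646F and 3.83, 2.52 and 2.76 FPKM in LY19WT, a difference of 0.66 ± 0.25 (limma adjusted p = 0.11, 0.037 with the block and 0.11 to 0.27 with 1 library left out). CEBPG, the other CEBP partner in the list, measured 21.2, 23.3 and 21.9 FPKM in LY19Y646F, against 25.7, 28.9 and 28.6 FPKM in LY19WT. Its difference was -0.31 ± 0.10, with a limma adjusted p of 0.062, of 0.048 with the block and of 0.049 without LY19WT replicate 1. Without any other library CEBPG did not pass, at an adjusted p of up to 0.15.

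DDIT3, which encodes the death-linked factor CHOP, was listed at 0 in all 6 libraries. Rows naming MARS, with 54.8 to 223 FPKM, overlap its position in all 6 libraries, and the authors' deposited table gives DDIT3 as 27.5 FPKM in LY19Y646F and 17.3 FPKM in LY19WT. The zeros are therefore not read as absence. NUPR1, a stress-induced nuclear protein, was listed at 0 in LY19Y646F and at no more than 0.0651 FPKM in LY19WT.

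Of the 6 effectors of ATF4, TRIB3, ASNS and VLDLR were higher in LY19Y646F and none was lower. TRIB3, a pseudokinase that feeds back on ATF4, measured 24.7, 17.03 and 17.1 FPKM in LY19Y646F, against 7.42, 6.62 and 7.14 FPKM in LY19WT. Its difference was 1.34 ± 0.18 (limma adjusted p = 0.0033). ASNS (chr7:97481430-97501854, hg19), which makes asparagine, measured 114, 136 and 133 FPKM in LY19Y646F and 76.9, 81.0 and 86.6 FPKM in LY19WT, a difference of 0.64 ± 0.10 (limma adjusted p = 0.0071). For both genes the lowest LY19Y646F library was well above the highest LY19WT library.

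VLDLR, a lipoprotein receptor that PERK and ATF4 are known to induce, had the largest difference of the tested module genes. It measured 4.11, 5.78 and 5.50 FPKM in LY19Y646F, against 0.126, 0.230 and 0.504 FPKM in LY19WT. The ratio of means was 17.9 and the difference was 2.25 ± 0.19 (limma adjusted p = 0.00062). The authors' deposited table gives VLDLR as 5.66 FPKM in LY19Y646F and 0.117 FPKM in LY19WT.

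PPP1R15A, which encodes GADD34, the phosphatase subunit that reverses eIF2 phosphorylation, measured 7.49, 8.06 and 8.25 FPKM in LY19Y646F and 6.77, 4.89 and 4.59 FPKM in LY19WT. The lines did not overlap, and the difference of 0.49 ± 0.16 had a limma adjusted p of 0.074, or of 0.024 without LY19WT replicate 1. Without any other library PPP1R15A did not pass, at an adjusted p of up to 0.21. CHAC1, an enzyme that degrades glutathione, measured 2.87, 0.657 and 0.778 FPKM in LY19Y646F and 0.942, 0.378 and 0.197 FPKM in LY19WT (limma adjusted p = 0.31). DDIT4, which encodes the mTORC1 inhibitor REDD1, was listed at 12.2, 0 and 0 FPKM in LY19Y646F and at 11.8, 1.36 and 1.33 FPKM in LY19WT. A row named RP11-442H21.2, with 13.1 and 13.3 FPKM, overlaps its position in the LY19Y646F libraries where it is listed at 0.

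The amino acid response core TGATGNAA, known to bind ATF4 with a CEBP partner, was found on either strand upstream of 6 of the 19 ATF4 arm genes with a promoter and of 1 of 23 ER arm genes, against 3.89% of all promoters. Matches are shown for a gene that was higher, ASNS, one that was lower, ATF3, and 2 that did not pass, with the core in capitals (RefSeq, GRCh38.p14).
ASNS, chr7:97872449-97872496, minus strand: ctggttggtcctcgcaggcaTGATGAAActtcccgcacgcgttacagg
ATF3, chr1:212565196-212565243, plus strand: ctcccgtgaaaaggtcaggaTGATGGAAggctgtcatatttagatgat
CEBPG, chr19:33374051-33374098, plus strand: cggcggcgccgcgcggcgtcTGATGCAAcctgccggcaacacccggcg
CHAC1, chr15:40953242-40953289, plus strand: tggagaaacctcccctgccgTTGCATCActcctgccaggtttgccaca
In CHAC1 the core lies on the opposite strand. GARS and AARS hold the other ATF4 arm matches. TRIB3 and VLDLR have none of these letters in this window.

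The aminoacyl-tRNA synthetases, which charge tRNAs and are targets of ATF4, moved in both directions. WARS, for tryptophan, measured 27.97, 27.4 and 27.3 FPKM in LY19Y646F, against 21.9, 20.9 and 19.4 FPKM in LY19WT, a difference of 0.39 ± 0.09 (limma adjusted p = 0.025). It did not pass when replicate 2 or 3 of either line was left out (adjusted p of 0.058 to 0.071). EPRS (chr1:220141943-220220000, hg19), for glutamate and proline, measured 60.9, 72.1 and 73.5 FPKM in LY19Y646F and 104, 114 and 125 FPKM in LY19WT, a difference of -0.73 ± 0.12 (limma adjusted p = 0.0073). The lines did not overlap for either gene.

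GARS, for glycine, measured 126, 166 and 205 FPKM in LY19Y646F and 189, 265 and 271 FPKM in LY19WT. The lines overlapped but each LY19Y646F library was below the LY19WT library of its number. The difference of -0.55 ± 0.24 had a limma adjusted p of 0.14, of 0.021 with the block and of 0.090 to 0.31 with 1 library left out. SARS, for serine, measured 73.1 to 96.2 FPKM in LY19Y646F and 78.5 to 80.9 FPKM in LY19WT (limma adjusted p = 0.92). NARS, for asparagine, measured 231 and 273 FPKM in LY19Y646F replicates 1 and 3, against 144, 125 and 148 FPKM in LY19WT, with 290.4 FPKM in a row of LY19Y646F replicate 2 that also names FECH. With that row set to missing its difference was 0.85 ± 0.14 (limma adjusted p = 0.012). AARS, for alanine, shared its row with EXOSC6 except in LY19Y646F replicate 3, and the rows held 70.3, 64.5 and 60.4 FPKM in LY19Y646F and 98.4, 100.2 and 73.9 FPKM in LY19WT (exact two-sided permutation p = 0.10, the smallest that 3 against 3 libraries allow). MARS, for methionine, shared its row with MBD6 in 5 libraries, and its rows overlapped, with 54.8 to 223 FPKM in LY19Y646F and 62.9 to 96.2 FPKM in LY19WT.

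The genes of the same pathways outside the module were read from 6 lists of 162 genes, of which 106 could be tested. Of these, 13 were higher in LY19Y646F and 18 were lower, with a median difference of -0.02. The share that passed was 29.2%, against 33.2% of all genes tested, and it ran from 21.1% to 36.7% over the 6 lists. Among the other regulators of the unfolded protein response, 1 of 13 tested genes was higher and 3 were lower. XBP1, the target of IRE1, measured 24.0, 27.6 and 27.9 FPKM in LY19Y646F, against 143, 160.3 and 162 FPKM in LY19WT, so it was lower where ERN1 was higher. Its difference was -2.51 ± 0.11 (limma adjusted p = 5.67e-05). The values count all XBP1 RNA and do not show its splicing. EIF2AK2, the eIF2 kinase PKR, was also lower, at 1.49 ± 0.193 FPKM in LY19Y646F and 16.9 ± 4.02 FPKM in LY19WT (SD, n = 3 each), and MAP3K5, a kinase downstream of IRE1, was higher, at 10.8 ± 1.998 FPKM in LY19Y646F and 3.81 ± 0.254 FPKM in LY19WT.

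Of the other ER folding genes, 2 of 19 tested were higher and 2 lower. TMX3, a membrane-bound isomerase, was higher (1.63 ± 0.16), and the oxidase QSOX1 (-2.24 ± 0.25) and the glucosyltransferase relative UGGT2 (-1.36 ± 0.24) were lower (limma adjusted p of 0.0011, 0.0018 and 0.0100). Of the other degradation genes 3 of 11 (27.3%, against 33.2% of all genes in either direction) were lower and none was higher. The lower ones were HERPUD2 (-1.58), EDEM3 (-0.98) and RNF5 (-0.63). HERPUD2 averaged 4.83 FPKM in LY19Y646F and 16.6 FPKM in LY19WT, while its paralog HERPUD1 was higher with its merged row set to missing, as given above. In translocation, glycosylation and export 5 of 30 were higher and 6 lower. The signal peptidase subunits there differed in direction: SEC11C averaged 207 FPKM in LY19Y646F and 48.4 FPKM in LY19WT (2.09), and its alternative subunit SEC11A averaged 65.6 FPKM in LY19Y646F and 123 FPKM in LY19WT (-0.90). SPCS3, of the same enzyme, averaged 45.2 FPKM in LY19Y646F and 125 FPKM in LY19WT (-1.44).

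Among 26 other tested ATF4 targets, 4 were higher and 3 lower, with a median difference of -0.07. The share that passed was 26.9%, against 33.2% of all genes. VEGFA, an angiogenic factor, averaged 16.5 ± 0.884 FPKM in LY19Y646F and 8.57 ± 0.455 FPKM in LY19WT (SD, n = 3 each). CBS, of cysteine synthesis, averaged 21.0 ± 20.6 FPKM in LY19Y646F and 0.0239 ± 0.0243 FPKM in LY19WT, and JDP2, a partner of ATF3, averaged 17.9 ± 6.53 FPKM in LY19Y646F and 4.74 ± 0.960 FPKM in LY19WT. All 3 were higher (limma adjusted p of 0.0023, 0.0064 and 0.0073). Of the other cytosolic synthetase genes, FARSB was higher (0.94 ± 0.15) and TARS lower (-0.70 ± 0.13) of 7 tested.

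**Figure D4:**
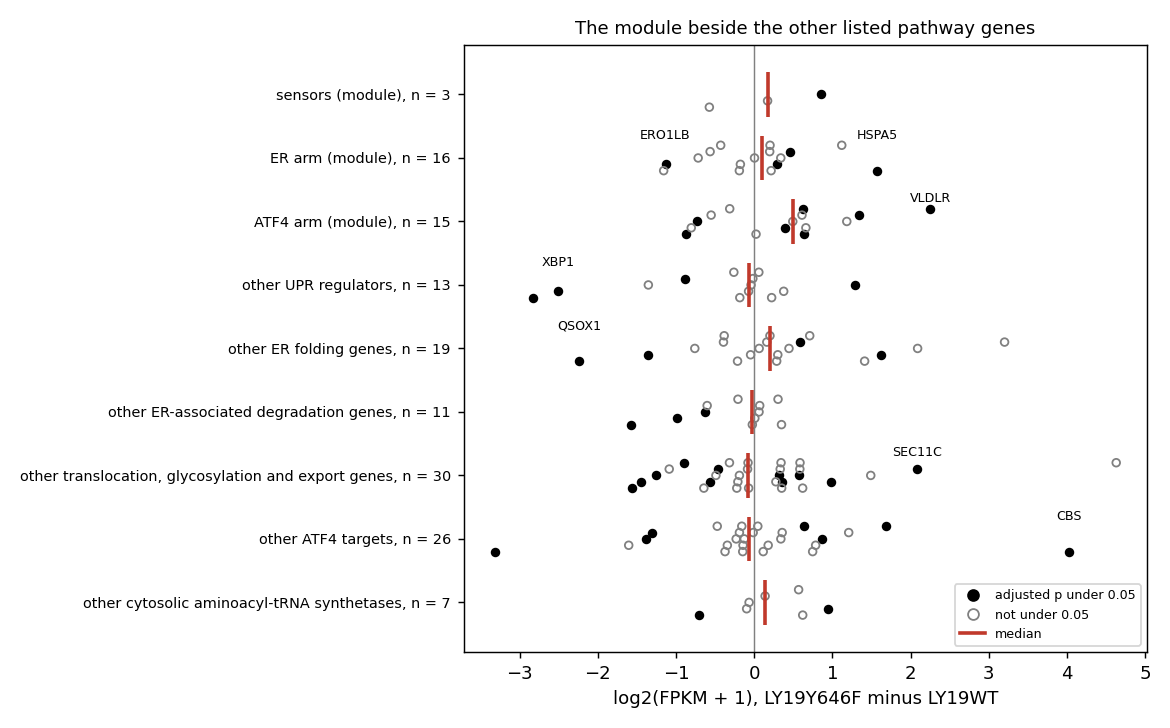
Difference on the x axis, log2(FPKM + 1) in LY19Y646F minus LY19WT, of each tested gene in the 3 groups of the module (top) and in 6 lists of other pathway genes. Filled points passed an adjusted p of 0.05 in limma and red bars are medians. The ATF4 arm has a median of 0.49 and the other ATF4 targets one of -0.07, and XBP1 lies at -2.51.

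Replicate 1 of both lines stood apart from replicates 2 and 3. Of the 34 tested module genes, 13 were highest in replicate 1 of both lines, against 21.0% of all genes, and 12 were lowest there, against 31.6% of all genes. The high ones include SDF2L1, CRELD2, CHAC1, ATF5, CEBPB and TRIB3. SDF2L1 in replicate 1 was above the mean of the other replicates by 2.99 in LY19Y646F and 1.92 in LY19WT on the log2 scale. DNAJB9 and DDIT4 also count among the 13, but in LY19Y646F their position there rests on the zeros in replicates 2 and 3. Other rows overlap them in those libraries, for DNAJB9 only at its edge. The low ones include HSPA5, HSP90B1, DNAJB11, MANF, ASNS and GARS. What set replicate 1 apart was not tested.

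**Figure D5:**
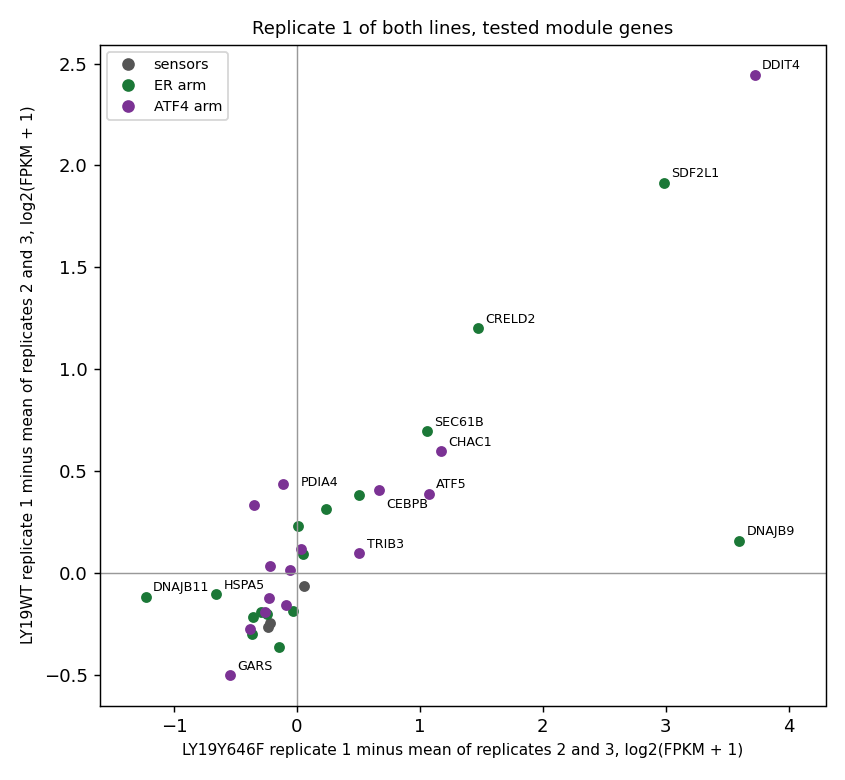
Deviation of replicate 1 from the mean of replicates 2 and 3 on the log2(FPKM + 1) scale, in LY19Y646F (x axis) and LY19WT (y axis), 1 point for each of the 34 tested module genes. SDF2L1 and CRELD2 lie high in both lines, and the LY19Y646F values of DDIT4 and DNAJB9 rest on zeros in replicates 2 and 3.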

How the data were processed

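Per the submitters' processing notes, reads were processed with STAR 2.5.3a, Cufflinks 2.2.1 and Cuffdiff 2.2.1 on hg19. The authors deposited FPKM per gene and library, each library on gene models of its own, and a Cuffdiff table of line means. That table has 13674 rows and no p-values. Read depth is not given in the sources used here, so no counting error can be given. A Cufflinks row can name several genes and then holds RNA of all of them. Rows were joined by gene symbol, and a gene sharing a row with another coding gene (types from GENCODE) in any library was not tested.

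The moderated test of limma 3.58.1 (R 4.3.3, mean trend, two-sided) was run on log2(FPKM + 1). It covered the 10664 genes averaging 0.5 FPKM or more over the 6 libraries, and p-values were adjusted by the Benjamini-Hochberg method over all of them. The script was tested on simulated data. Replicate numbers come from the labels. Same-numbered libraries deviated together (Pearson r across genes of 0.274, 0.112 and 0.135 for replicates 1, 2 and 3). LY19Y646F replicate 2 with LY19WT replicate 3 gave 0.100 and replicate 3 with 2 gave 0.060, so the pairing is clear for replicate 1 only. All same-number values were above 0.1, but so was the unmatched 0.1002, so that level does not set replicates 2 and 3 apart. A fit with the replicate number as a block is given where it changes a call. The alternatives were another pseudocount (0.1), filters at 2 FPKM and none, median-ratio and quantile scaling, genes alone in their row, merged rows counted, library weights, each library left out, and 3 added after the values were seen. Promoters are RefSeq's (GRCh38.p14, 46 of 50 genes matched), and other coordinates are the files' (hg19, counted from 1). Rows of CALR and of EDEM1 in LY19WT replicate 2 are not reported here. The entries of PDIA3, DERL1, SEC24D and NUPR1 were not used.

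The members and lists were chosen with earlier results of these data known. The text names every module gene, gives in full those that passed, the sensors and those tested whose lines do not overlap, and of each other list the 3 genes with the smallest adjusted p and XBP1.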

Additional observations from a re-analysis of the deposited data

How the results depend on the processing

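ATF4, TRIB3, ASNS, VLDLR and EPRS passed in all 18 alternatives, ERN1 and ERO1LB in the 17 where they could be tested, and HSPA5 in 17 of 18 (not without a filter, adjusted p = 0.051). WARS passed in 14, PDIA6 in 13, SSR3 and ATF3 in 11. Genes called numbered 3544, and 2764 to 4044 with 1 library left out, 3856 with the replicate block and 5748 with library weights. They numbered 4564 without replicate 1 of both lines. ER arm genes called higher (3) numbered 1 with no filter and with quantile scaling, 5 with merged rows counted, 6 with library weights and 1 to 4 with 1 library left out. Those called lower (1) numbered 2 with quantile scaling, 3 with library weights, 2 with the replicate block and 1 to 2 with 1 library left out. DNAJB9, with its zeros, is among those called lower with library weights and without LY19Y646F replicate 1. ATF4 arm genes called higher (5) numbered 8 with library weights, 7 with the block and 4 to 6 with 1 library left out. Those called lower (2) numbered 1 with no filter and with quantile scaling, 4 with library weights, 3 with the block and 1 to 2 with 1 library left out. Of the alternatives chosen after seeing the data, merged rows set to missing gave 6 ER arm genes higher, long rows set to missing 0 lower, and leaving out replicate 1 of both lines 5 ER arm genes higher and 3 lower (with DNAJB9) and 8 ATF4 arm genes higher. The causes were not tested, except that merged rows set to missing tests more genes and long rows set to missing leaves ERO1LB untested. The block changed no call among tested module genes other than EIF2AK4, MANF, ATF5, CEBPB, CEBPG, GARS and ATF3.

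The ER arm median of 0.10 was -0.18 over genes alone in their row and 0.06 to 0.19 with 1 library left out. No gene that passed changed direction. Genes that did not pass and changed sign were EIF2AK3 (-0.014 with library weights, -0.012 to 0.27 with 1 library left out), SEC61B (-0.013 to 0.57 with 1 library left out), DDIT4 (-2.05 to 0.010), DNAJC3 (-0.012 with median-ratio scaling, -0.097 to 0.13 with 1 library left out), SDF2L1 (-1.56 to 0.43) and SARS (-0.12 with quantile scaling, -0.10 to 0.094 with 1 library left out). In the authors' deposited table DNAJB9 stood at 0.79, DNAJC3 at -0.033, SDF2L1 at 0.011 and SARS at -0.025. Depth is unknown, and 3 libraries a line limit the precision.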
